A study of Mus musculus with 4 samples.

Results

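The DNA replication machinery was described here by 34 listed mouse genes, which encode the proteins that license origins, unwind and copy DNA, supply nucleotides and rebuild chromatin behind the fork. The list was taken by gene name, with earlier results of these data known. Each gene is represented by its brightest probe, judged by the mean over all arrays. Of the 34 genes, 32 had a named probe and all 32 were tested, among 12120 named genes tested in all. Rpa1, a subunit of the single-strand binding protein RPA, and Rrm2, the small subunit of ribonucleotide reductase, had no named probe here and were not analysed.

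The series asked how a lack of HP1γ affects primordial germ cells, the precursors of eggs and sperm. HP1γ is the chromatin protein encoded by Cbx3 that binds methylated histone H3. Wild-type and HP1γ-/- embryos at embryonic day 11.5, both carrying the Blimp1-mVenus transgene that makes germ cells fluoresce, were compared. The HP1γ-null allele came from a modified gene trap, and the null embryos from a backcross of transgenic heterozygotes to heterozygotes. Cells positive for mVenus were sorted from genital ridges, 500 to 3500 per embryo. RNA from 5 or 6 embryos was pooled, 2 independent pools were made for each genotype, and 4 ng of each pool was labelled with Cy3 and hybridised to 1 one-colour array. Strain background and the sex of the embryos are not given in the sources used here.

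Replication starts when the origin recognition complex, Cdc6 and Cdt1 load the MCM helicase on DNA in G1. Cdc45 and the GINS proteins then join the helicase, which opens the duplex for the polymerases in S phase, while the ring-shaped clamp PCNA holds the polymerases on their template. Many of these genes are transcribed at the G1 to S transition under E2F factors, so that their transcripts mark cycling cells, and primordial germ cells are known to proliferate by mitosis as they settle in the genital ridge.

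The arrays differed in ways that bear on every value below. Their 75th percentile intensity was 188 and 219 in wild-type replicates 1 and 2 and 125 and 291 in null replicates 1 and 2. Levels are therefore given as log2 intensity minus the array's own 75th percentile, always in that order of pools. Cbx3 on its brightest probe had levels of 5.89, 5.72, -1.24 and -2.78, so both null pools were far below both wild-type pools. The labelled cell type was less even. Of 13 germ cell markers with a named probe, 12, 12, 13 and 4 were well above background, and their median level was -0.69, -2.02, 0.82 and -5.33. In null replicate 2, the markers Dppa3, Pou5f1, Ddx4 and Sox2 stood at -7.04, -5.33, -6.73 and -6.95, and none of these was well above background there. The markers that were well above background there were Dnd1, Ifitm3, Sall4 and Alpl, at -2.05, 1.70, -1.37 and -2.90. Of these, Ifitm3 lay above both wild-type pools and the others below both. Markers of other cells were present on all arrays. The log2 of the summed level adds over the genes of a list and is not comparable with the medians above. It was 3.53, 2.43, 5.20 and 2.06 for the 13 germ cell markers. It was 8.66, 8.81, 7.86 and 8.22 for 14 endothelial markers, and 8.39, 8.62, 8.47 and 8.16 for 11 leukocyte markers. For 11 stromal markers it was 4.69, 3.44, 3.67 and 6.48, and for 11 gonadal soma markers 2.17, 1.76, 3.01 and 3.44. All 14 endothelial markers had the lower mean level in the null pools. In 13 of them the genotypes did not overlap (92.9%, against 38.2% of all tested probes). The 10 stromal and 5 gonadal soma markers that were tested all had the higher mean level there. Of the erythroid markers, Hba-a1, Hbb-bh1, Hbb-y and Epor were well above background on all 4 arrays and Hba-x on 3, Alas2 and Slc4a1 on 1, and Klf1 and Gata1 on none. The part of this makeup in the replication genes' values was not tested, and in such bulk pools fewer cells of a type and less RNA per cell cannot be told apart.

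What the genes share in sequence, beyond their role, was looked for in RefSeq promoter windows of assembly GRCm38.p6, 250 bases before to 50 bases after an annotated start. Windows were found for 30 of the 34 genes, with Mcm4, Gins1, Gins2 and Pole without an entry. The E2F words TTTCGCGC and TTTGGCGC were searched on both strands. They occurred in a window of 9 of the 30 genes (30%), against 251 of 27025 genes with a window (0.929%) and 0.813% of all windows. With the looser words TTTCCCGC and TTTGCCGC added, 13 of 30 genes (43.3%) had a match, against 2.61% of all genes and 2.26% of windows. The added genes were Cdc6, Gins3, Pold1 and Cdca7. CCAAT, the word bound by the factor NF-Y, stood in 21 of the 30 genes (70%) and in 41.1% of all genes.

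The matched stretches are shown because a higher share of these windows than of all windows held the words. Each is 30 bases on the gene's own strand with the matched word in capitals, and positions count from the annotated start, with no position 0. The words of Cdt1, Mcm3, Mcm7 and Lig1 lie just after the start, those of Orc1 and Rfc3 just before it. In Mcm5 and in the farther match of Mcm6 the forward and reverse words overlap, so the capitals run over both.
Orc1, chr4:108579416-108579445, plus strand, match at -27 to -20: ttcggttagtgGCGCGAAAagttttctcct
Cdt1, chr8:122568035-122568064, plus strand, match at 33 to 40: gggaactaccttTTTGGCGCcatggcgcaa
Mcm3, chr1:20820263-20820292, minus strand, match at 39 to 46: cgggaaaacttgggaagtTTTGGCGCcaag
Mcm5, chr8:75109349-75109378, plus strand, matches at -153 to -146 and -149 to -142: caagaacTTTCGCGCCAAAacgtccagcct
Mcm6, near match, chr1:128359734-128359763, minus strand, at -47 to -40: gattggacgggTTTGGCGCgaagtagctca
Mcm6, far matches, chr1:128359793-128359822, minus strand, at -110 to -103 and -106 to -99: gtatgctTTTGGCGCGAAAagtgcgtgcgg
Mcm7, chr5:138171849-138171878, minus strand, match at 17 to 24: gggtgacgacgTTTCGCGCcaatttcggtt
Pola1, chrX:93632275-93632304, minus strand, match at -138 to -131: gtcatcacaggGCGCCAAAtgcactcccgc
Rfc3, chr5:151651200-151651229, minus strand, match at -10 to -3: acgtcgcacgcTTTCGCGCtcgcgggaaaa
Lig1, chr7:13278841-13278870, plus strand, match at 27 to 34 of one of its annotated starts: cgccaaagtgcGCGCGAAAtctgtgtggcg

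The whole windows of Rfc3, Mcm7 and Orc1, whose matches lie nearest to a start, show the context of the word.
Rfc3, chr5:151651159-151651458, minus strand: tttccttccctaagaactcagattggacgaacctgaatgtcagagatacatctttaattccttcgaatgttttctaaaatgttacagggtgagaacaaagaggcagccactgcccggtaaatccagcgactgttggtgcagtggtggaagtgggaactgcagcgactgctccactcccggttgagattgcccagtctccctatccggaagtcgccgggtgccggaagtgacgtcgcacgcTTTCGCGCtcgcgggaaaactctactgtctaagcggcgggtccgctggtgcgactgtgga
Mcm7, chr5:138171834-138172133, minus strand: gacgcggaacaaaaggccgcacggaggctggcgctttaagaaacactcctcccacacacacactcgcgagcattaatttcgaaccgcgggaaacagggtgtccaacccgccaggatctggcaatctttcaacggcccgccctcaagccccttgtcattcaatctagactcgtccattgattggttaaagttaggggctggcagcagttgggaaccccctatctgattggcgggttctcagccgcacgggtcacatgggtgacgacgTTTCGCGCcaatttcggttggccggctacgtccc
Orc1, chr4:108579204-108579503, plus strand: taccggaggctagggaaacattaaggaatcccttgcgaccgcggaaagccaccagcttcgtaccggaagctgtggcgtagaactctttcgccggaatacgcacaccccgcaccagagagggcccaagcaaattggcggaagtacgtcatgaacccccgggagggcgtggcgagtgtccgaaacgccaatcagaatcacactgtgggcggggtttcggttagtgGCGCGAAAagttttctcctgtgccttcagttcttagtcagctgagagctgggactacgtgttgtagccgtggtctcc

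Outside the list, of 37 other replication genes with a window, 4 (10.8%) had either of the narrower words and 10 (27.0%) any of the 4 words. Of 20 genes of G2 and mitosis, 1 (5%) had a match by either search, while 17 (85%) had CCAAT. A match describes letters only, and binding by E2F was not measured in these samples.

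**Figure D1:**
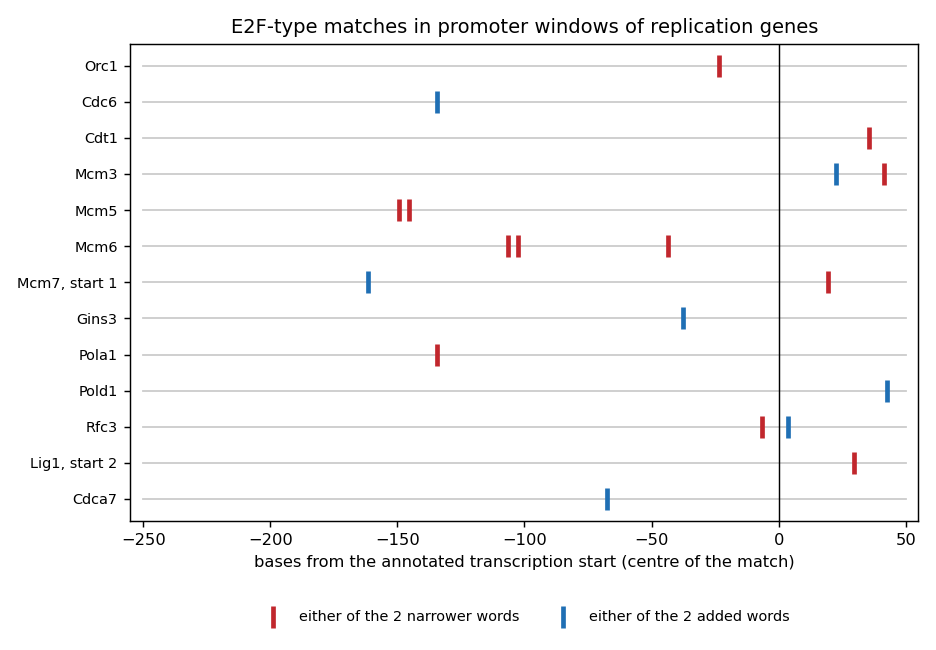
Positions of E2F-type words in the promoter windows of the 13 replication genes that hold one. The x axis gives bases from the annotated transcription start to the centre of the match, grey lines span the window from 250 bases before to 50 after it, and "start" numbers the annotated start where a gene has several. Red ticks are TTTCGCGC or TTTGGCGC and blue ticks the added TTTCCCGC or TTTGCCGC, on either strand. Matches lie on both sides of the start, and 9 genes have a red tick.

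No replication gene passed the test for a difference between wild-type and HP1γ-null pools. The pools of 8 genes (25%, against 38.2% of all tested probes) did not overlap between genotypes. All 32 were well above background on all 4 arrays. With each array scaled to its 75th percentile, 17 had the higher mean in the null pools and 15 in the wild-type pools, and when arrays were scaled to spiked-in control probes instead, 0 of 32 had the higher mean in the null pools. That scaling moved the median difference of all 22440 tested probes from -0.06 to -0.61. The median over the replication genes moved from 0.02 to -0.53. Both scalings shift each array by a constant, so these genes lie 0.08 above the median of all probes on either scale by construction. With the normexp background model they lay 0.02 above it. The differences, null minus wild type on the log2 scale, ran from -0.27 for Fen1 to 0.39 for Cdc45.

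None of the 32 genes passed limma's test at an adjusted p of 0.05, a threshold that 0.00891% of all tested probes passed. At an unadjusted p of 0.05 the count was also 0, against 7.51% of all probes. The smallest adjusted p was 0.798, for Cdc45. In 5 genes both null pools lay above both wild-type pools (background 15.1%) and in 3 both lay below (background 23.0%), so 8 of 32 (25%) did not overlap, against 38.2% of all tested probes. The test was coarse at 2 pools against 2. Cbx3 itself differed by -7.82 on its brightest probe with a limma adjusted p of 0.0991, which did not pass. Its other tested probe differed by -6.70 and passed (limma adjusted p = 0.0440). With 1 probe each, 0 of 12120 named genes passed. The 95% intervals of the replication genes' differences reached 0.52 to 0.88 on either side on the log2 scale. All 32 held 0 on the percentile scale, and 30 lay within a 2-fold change in either direction. The others were Cdc45 (-0.23 to 1.01) and Fen1 (-1.09 to 0.55). These bounds do not carry over to scaling by spiked-in controls, where the median difference was -0.53 and the largest had a size of 0.82.

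**Figure D2:**
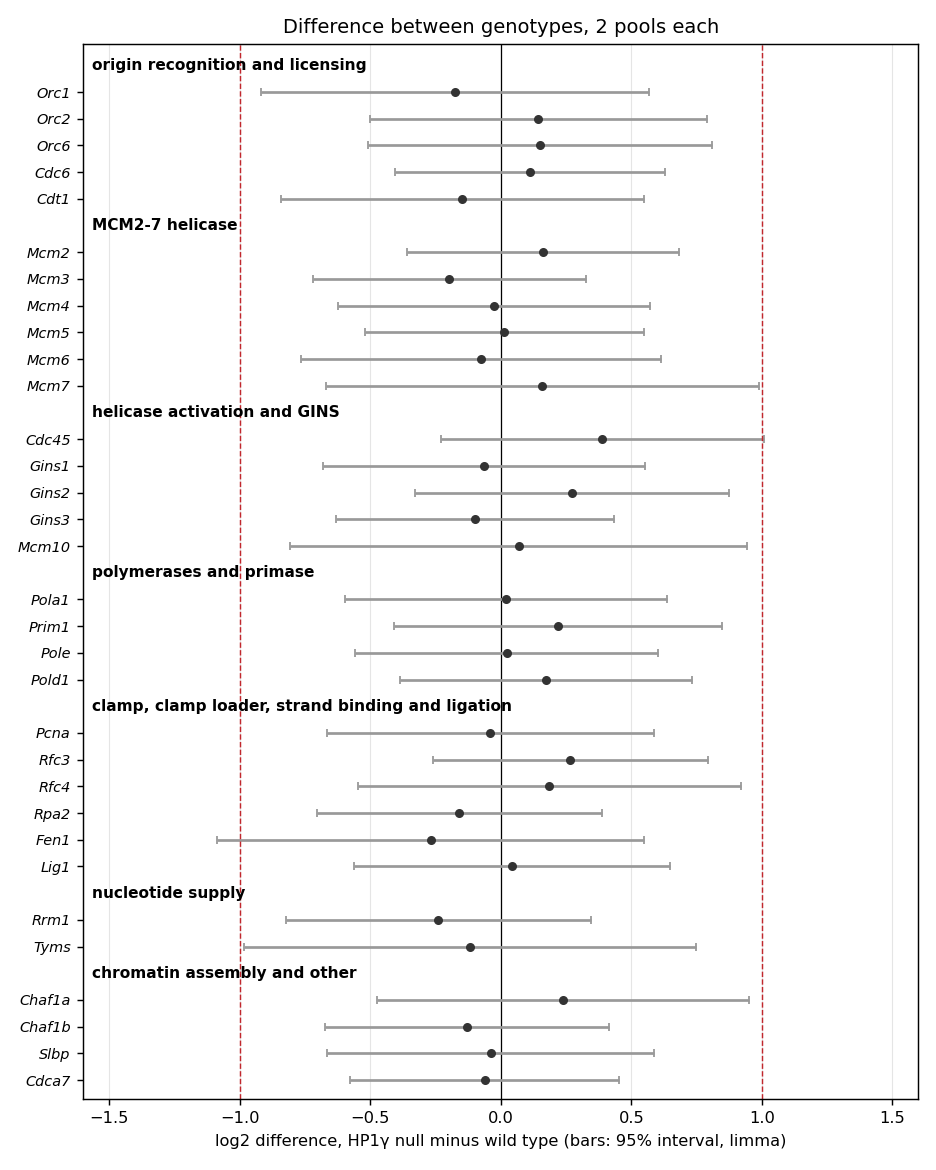
Log2 difference between genotypes, HP1γ null minus wild type, for the 32 replication genes measured, grouped by role, with each array scaled to its 75th percentile. Points are differences of the means of 2 pools each, bars are limma's 95% intervals and dashed lines mark a 2-fold change. Every bar crosses 0, and under scaling to spiked-in controls all 32 points would lie below 0.

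Among the genes that recognise and license origins, no difference passed the test. Orc1, the ATPase subunit of the origin recognition complex, had levels of -1.68, -1.79, -1.62 and -2.21, a difference of -0.18 ± 0.28 (SE, n = 2 pools per genotype, limma adjusted p = 0.943). Null replicate 1 was the highest of the 4 pools and null replicate 2 the lowest, so the wild-type values lay between them. Cdc6, the ATPase that helps load the helicase, had levels of -0.25, -0.28, -0.09 and -0.22, and both null pools lay above both wild-type pools, with a difference of 0.11 ± 0.19 (adjusted p = 0.952). A second Cdc6 probe gave -0.09, -0.25, -0.80 and -0.22, with the difference in the other direction at -0.34 (adjusted p = 0.857), so the probes of Cdc6 disagreed. Cdt1, its partner in loading, differed by -0.15, and the origin recognition subunits Orc2 and Orc6 by 0.14 and 0.15. For these 3 the pools of the genotypes overlapped.

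The subunits of the MCM2-7 ring, the helicase core, split evenly on the percentile scale, 3 with a higher and 3 with a lower mean in the null pools, while all 6 were lower on the scale of spiked-in controls. Mcm2 had levels of 2.95, 3.06, 3.22 and 3.11, and Mcm3 had levels of 1.23, 1.29, 0.99 and 1.14. These were the subunits whose genotypes did not overlap, and they lay apart in opposite directions, Mcm2 higher by 0.16 ± 0.20 (adjusted p = 0.915) and Mcm3 lower with a difference of -0.20 ± 0.20 (adjusted p = 0.885). Mcm4 had levels of 4.87, 4.76, 4.96 and 4.62 and Mcm5 of 3.96, 4.03, 4.10 and 3.91. Mcm6 had 5.98, 6.00, 6.17 and 5.65, and Mcm7 had 4.80, 4.74, 5.29 and 4.56. In all 4 of these the null pools bracketed the wild-type pools, with null replicate 1 at the top and null replicate 2 at the bottom. Their differences were -0.03 for Mcm4, 0.01 for Mcm5, -0.08 for Mcm6 and 0.16 for Mcm7, with adjusted p from 0.959 to 0.994. The median over the 6 subunits was 4.38, 4.38, 4.53 and 4.24.

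Cdc45, which joins MCM2-7 and GINS in the active helicase, showed the largest difference of the 32 genes on the percentile scale, though not with normexp (0.19) or with spiked-in controls (-0.16). Its levels were -2.29, -2.19, -2.05 and -1.66, both null pools above both wild-type pools, and the difference was 0.39 ± 0.23 (unadjusted p = 0.162, limma adjusted p = 0.798). Linear intensities behind these levels were 38.3, 47.9, 30.1 and 92.0, so this is a dim probe. Gins2, a GINS subunit, had levels of 0.54, 0.88, 0.92 and 1.05 and also did not overlap, with a difference of 0.27 ± 0.22 (adjusted p = 0.857). Wild-type replicate 2 and null replicate 1 were nearly equal, the wild-type pools lay farther apart than the null pools, and with spiked-in controls the null pools had the lower mean. The other GINS subunits differed by -0.06 (Gins1, -0.08 on a second probe) and -0.10 (Gins3), and Mcm10, a factor needed to start unwinding, by 0.07.

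The polymerase genes all had a slightly higher mean in the null pools on the percentile scale and a lower one on the scale of spiked-in controls, and none passed the test. Prim1, the catalytic primase subunit that makes RNA primers, had levels of 3.31, 3.25, 3.71 and 3.29, a difference of 0.22 ± 0.24 (adjusted p = 0.898). Only null replicate 1 stood out, and null replicate 2 lay between the wild-type pools. Pold1, the catalytic subunit of the main lagging-strand polymerase, differed by 0.17 and by 0.15 on a second probe. Pole, its leading-strand counterpart, and Pola1, which extends the RNA primers, each differed by 0.02.

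Pcna, the clamp gene often used as a marker of proliferation, had levels of 4.97, 4.88, 5.09 and 4.68. Null replicate 1 was again the highest pool and null replicate 2 the lowest, and the difference was -0.04 ± 0.23 (adjusted p = 0.991, 95% interval -0.67 to 0.59). Among the clamp loader genes, Rfc3 had levels of -0.42, -0.31, -0.17 and -0.03, both null pools above both wild-type pools, a difference of 0.27 ± 0.20 (adjusted p = 0.843) that also changed sign with spiked-in controls. Rfc4, another subunit of the same loader, differed by 0.19 with overlapping pools. Rpa2, the middle subunit of RPA, had levels of 1.54, 1.44, 1.44 and 1.22, wild-type replicate 2 and null replicate 1 being equal in the digits given and null replicate 2 the lowest, with a difference of -0.16 ± 0.20 (adjusted p = 0.924). Fen1, the nuclease that trims Okazaki fragments, had levels of 0.43, 1.11, 0.39 and 0.61. Its difference of -0.27 ± 0.31 (adjusted p = 0.908) was smaller than the gap between its wild-type pools. Lig1, the ligase that seals the fragments, differed by 0.04.

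Of the nucleotide supply genes, Rrm1, the large subunit of ribonucleotide reductase, had levels of 3.24, 3.22, 3.16 and 2.83. Both null pools lay below both wild-type pools, null replicate 1 only slightly, and the difference was -0.24 ± 0.22 (adjusted p = 0.872). Tyms, which makes thymidylate, differed by -0.12 on both of its probes.

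Of the genes that act on chromatin, Chaf1a, the large subunit of the histone chaperone CAF-1, had levels of 1.54, 1.53, 1.49 and 2.05, a difference of 0.24 ± 0.27 (adjusted p = 0.905) in which null replicate 2 was the highest pool and null replicate 1 the lowest. Chaf1b, its partner subunit, differed by -0.13, Slbp, which binds the stem-loop of histone mRNAs, by -0.04, and Cdca7, a cofactor of the chromatin remodeller HELLS, by -0.06. Cdca7 was the steadiest gene of the list, with levels that spanned 0.13 over the 4 arrays.

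The spread over arrays, on the percentile scale, was small for most of these genes. The range over the 4 arrays had a median of 0.40 for the 32 genes and a maximum of 0.80, for Mcm10, and 0 of 32 ranged over more than 1 on the log2 scale. Over the 11313 named genes that were also well above background on all 4 arrays, the median range was 0.54 and 17.0% ranged over more than 1. Those genes were dimmer, with median levels of 0.76, 0.78, 0.76 and 0.76, against 3.01, 3.08, 3.19 and 2.79 for the replication genes. Genes matched by level were not compared, and the part of level in the spread was not tested. On the percentile scale the wild-type pools of the replication genes lay a median of 0.09 apart and the null pools 0.37 apart. The null pools were farther apart in 29 of 32 genes, against 75% of all tested probes. These distances depend on the scaling. With spiked-in controls, the median over all tested probes of replicate 1 minus replicate 2 moved from -0.01 to -0.32 in the wild-type pools. In the null pools it moved from 0.07 to -0.46.

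**Figure D3:**
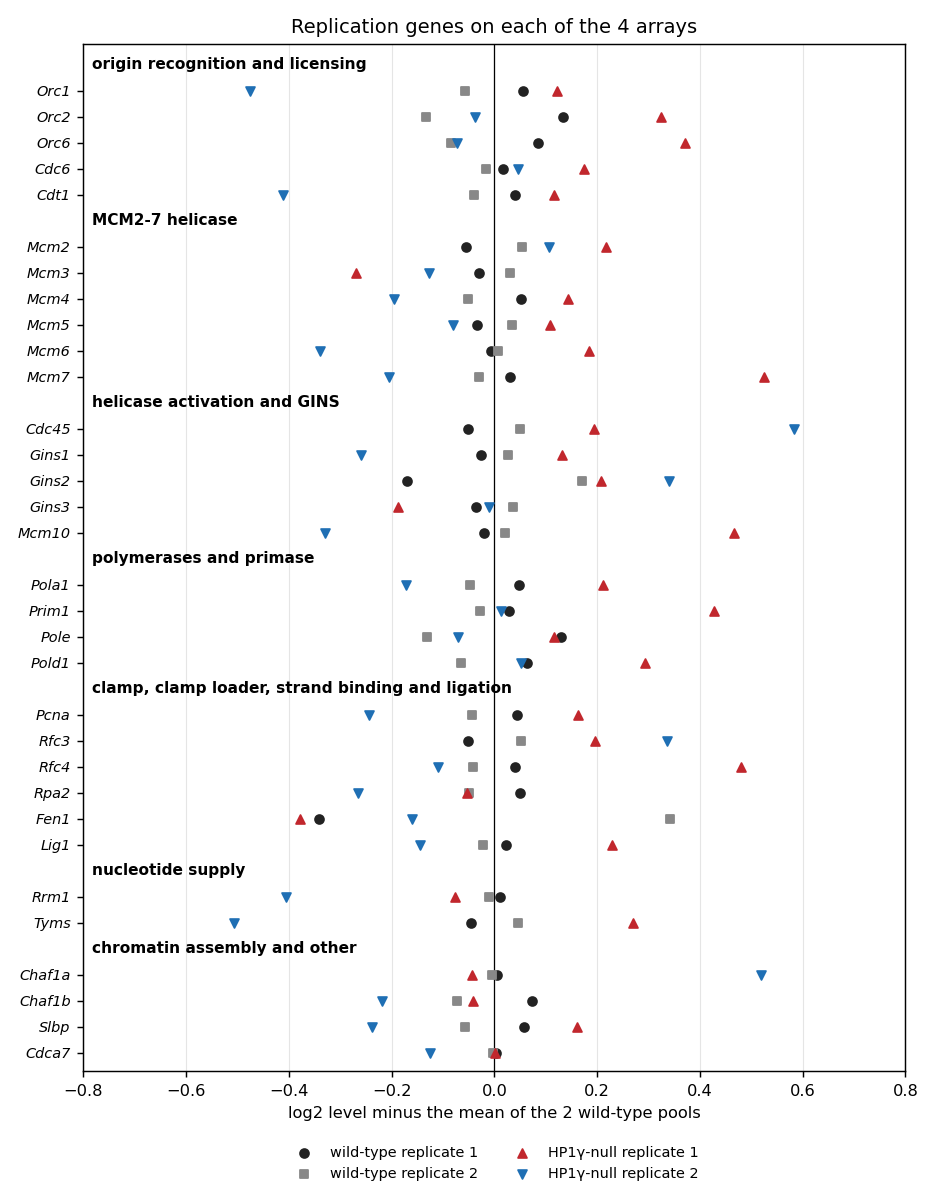
Level of each of the 32 replication genes on each array, as log2 level minus the mean of the wild-type pools, grouped by role. Black circles and grey squares are the wild-type pools, red upward triangles null replicate 1 and blue downward triangles null replicate 2. Red triangles lie right of blue ones in 25 of 32 genes on the percentile scale shown, and in 5 of 32 when arrays are scaled to spiked-in controls.

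A gap between single pools is not averaged, as a difference between means of 2 pools is, so their sizes are unlike measures. On the percentile scale the replication genes had a median size of 0.37 for the gap between null pools and 0.15 for the difference between genotypes. Over all tested probes these medians were 0.42 and 0.22, so the order was the same across the array. On that scale null replicate 1 had the higher level in 25 of 32 replication genes (78.1%, against 54.6% of all tested probes), with a median difference between the null pools of 0.33 (0.07 over all tested probes). It lay above both wild-type pools in 23 genes (71.9%, against 39.0%), and null replicate 2 lay below both in 19 (59.4%, against 50.2%). In 14 genes (43.8%, against 18.7%) both held at once: Orc1, Cdt1, Mcm4, Mcm5, Mcm6, Mcm7, Gins1, Mcm10, Pola1, Pcna, Rfc4, Lig1, Tyms and Slbp. These counts have no test, since they set 1 pool against 1 pool.

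The direction and size of this gap depended on the scaling. Under scaling to spiked-in controls null replicate 1 was higher in 5 of 32 genes and the median gap was -0.20, against -0.46 over all tested probes. Both scalings shift each array by a constant, so the distance of the replication genes from the other probes is the same on both by construction. Under quantile normalization the median gap was 0.18 (0.02 over all probes). With the normexp background model it was 0.06, below the 0.17 of all probes, and 21 of 32 genes were higher in null replicate 1. With dim probes kept, the median over all probes rose to 0.33, equal to that of the replication genes.

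On the percentile scale the gap was seen in most groups of the machinery, and on the scale of spiked-in controls no group had more than 1 gene higher in null replicate 1. On the first scale null replicate 1 was higher in 5 of 5 origin genes, 5 of 6 MCM genes, 4 of 4 polymerase genes, 4 of 6 clamp and ligation genes, 2 of 2 nucleotide genes and 3 of 4 chromatin genes, but in 2 of 5 helicase activation genes. Mcm10 and Tyms, chosen after their values were seen, had the widest gaps. Mcm10 had levels of 3.06, 3.11, 3.55 and 2.75, and Tyms of 4.94, 5.03, 5.25 and 4.48, in both cases with the wild-type pools close together between the null pools. The 7 genes that ran the other way were Mcm3, Cdc45, Gins2, Gins3, Rfc3, Fen1 and Chaf1a.

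Since null replicate 2 was the pool with few detected germ cell markers, each count was also taken without it, on the percentile scale. The comparison of null replicate 1 alone with the wild-type pools gave a higher level in 25 of 32 genes (48.2% of all tested probes) and a median difference of 0.17, against -0.02 over all probes. Without null replicate 1, 8 of 32 were higher in null replicate 2 (41.3% of all probes) and the median was -0.14, against -0.10 over all probes. The median of the replication genes thus lay above that of all probes with the first null pool and near it with the second. Genes that did not overlap numbered 23 higher and 6 lower without null replicate 2, against 39.0% and 42.6% of all probes. Without null replicate 1 they numbered 6 higher and 19 lower, against 33.7% and 50.2%. In these fits only the wild-type pools give the spread, the lone null pool is assumed to vary like them, and 0 of all 22440 probes passed the adjusted threshold (4820 and 5644 at an unadjusted p under 0.05), so the absence of calls among the replication genes says nothing about them. The smallest limma adjusted p among them was 0.204 without null replicate 2 and 0.165 (Cdc45) without null replicate 1. Of the 12 germ cell markers tested, 12 were higher in null replicate 1, and 11 on the scale of spiked-in controls. In 8 of them null replicate 2 had no signal well above background, so the gap is a bound there, set against the lowest signal well above background on that array or the probe's own signal, whichever was higher. With these at their bound the median gap was at least 4.76, and at least 4.23 with spiked-in controls. Leukocyte markers were higher in null replicate 1 in 10 of 11 with a median gap of 0.29, which became 3 of 11 and -0.24 with spiked-in controls. Endothelial markers were higher there in 3 of 14 with a median gap of -0.37, which became 1 of 14 and -0.90. Stromal markers were higher there in 1 of 10 on either scale, with median gaps of -3.27 and -3.80. The part of these cells in the gap of the replication genes was not tested.

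**Figure D4:**
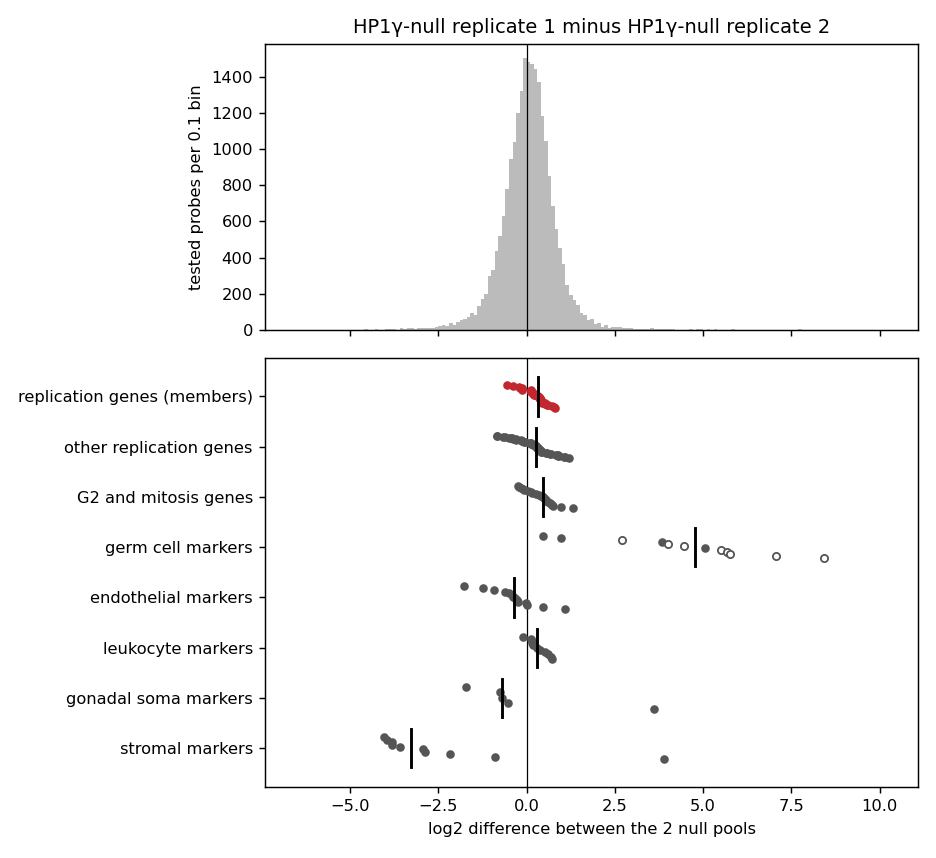
Log2 difference between the null pools, replicate 1 minus replicate 2, on the percentile scale. The upper panel is the histogram of all 22440 tested probes in bins of 0.1, and in the lower panel each point is a gene, black bars are list medians and red marks the replication genes. Open circles are lower bounds, for probes not well above background in null replicate 2. The replication genes have a median of 0.33 (-0.20 when arrays are scaled to spiked-in controls) and germ cell markers a median of at least 4.76.

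Genes with and without the promoter words are set side by side, with no test. On the percentile scale the 9 genes with either narrower E2F word had a median difference between genotypes of 0.01, with 5 higher in the null pools, and were higher in null replicate 1 in 7 of 9. The 19 measured genes with a window but neither narrower word had a median of 0.07, with 10 higher, and were higher in null replicate 1 in 15 of 19. Among these 19 are Cdc6, Gins3, Pold1 and Cdca7, which hold a looser E2F word. Both medians turn negative with spiked-in controls, under which all 32 genes had the lower mean in the null pools.

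The rest of the replication pathway, 49 further genes, gave 0 past limma's test and 1 with an unadjusted p under 0.05. Of all tested probes, 7.51% had an unadjusted p under 0.05. On the percentile scale 29 had the higher and 20 the lower mean under HP1γ loss, a median difference of 0.06, while with spiked-in controls 1 had the higher mean and the median was -0.48. The gene below that p was Pola2, the accessory subunit of polymerase alpha. Its levels were -3.06, -2.92, -2.44 and -2.31, both null pools above both wild-type pools, a difference of 0.62 ± 0.20 (unadjusted p = 0.0317, limma adjusted p = 0.615). The linear intensities behind these levels were 22.4, 28.9, 23.0 and 58.7, so this is a dim probe. The next by p were Rrm2b, the p53-responsive small subunit of ribonucleotide reductase (difference -0.45, adjusted p = 0.735), Rnaseh2a of the RNase H2 complex (0.29, adjusted p = 0.820) and Pole3, a histone-fold subunit of polymerase epsilon (0.27, adjusted p = 0.870). Null replicate 1 was above null replicate 2 in 34 of the 49 (69.4%), and in 12 with spiked-in controls.

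The 13 measured genes of E2F factors and pocket proteins, the regulators of G1 to S transcription, gave 0 past the test, 4 with a higher and 9 with a lower mean and a median of -0.10, which became 1, 12 and -0.64 with spiked-in controls. Those with the smallest unadjusted p were Tfdp1 (difference -0.45, adjusted p = 0.783), E2f5 (0.35, adjusted p = 0.795), Rb1 (-0.34, adjusted p = 0.814) and Tfdp2 (0.64, adjusted p = 0.844). Tfdp1 and Tfdp2 encode partners of E2F proteins, and Rb1 the retinoblastoma protein that holds them in check.

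Of 24 genes of G2 and mitosis, 19 had the higher mean in the null pools on the percentile scale, with a median difference of 0.09, and 0 had it with spiked-in controls, where the median was -0.45. The count past the test was 0. The 4 with the smallest unadjusted p were Ube2c, the ubiquitin-conjugating enzyme of the anaphase-promoting complex (0.42, adjusted p = 0.753), Cdc20, its activator (0.26, adjusted p = 0.884), the spindle motor Kif11 (0.21, adjusted p = 0.890) and the mitotic kinase Plk1 (0.16, adjusted p = 0.914). Null replicate 1 was above null replicate 2 in 19 of the 24, with a median gap of 0.45. On the scale of spiked-in controls it was above in 9, with a median gap of -0.08. The median gap over all tested probes changed sign in the same way, from 0.07 to -0.46.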

How the data were processed

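RNA of 4 pools was measured on Agilent one-colour arrays that lay on 1 slide. Per the file headers and the submitters' processing notes, the deposited intensity values come from Agilent Feature Extraction 10.7.3.1, which subtracted background within each array and did not scale arrays to each other. The value table that the authors deposited gives the same intensity within 0.50%. Amplification from 4 ng of RNA can add noise to dim probes.

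From the processed signal, log2 levels were computed here and the 75th percentile over non-control spots was subtracted. Spots of a probe were averaged without outlier spots (83 to 104 per array). A probe was tested where both pools of a genotype were well above background, which held for 22440 probes. The test was limma 3.58.1 (R 4.3.3), fitted with lmFit and eBayes with no covariate, two-sided, and Benjamini-Hochberg adjustment covered every tested probe. Intervals are from this fit. Python 3.11.15 with pandas 2.3.3 read the files, and the code was tested on simulated data. The number of arrays limits the precision.

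Accessions, matched without versions to RefSeq names of GRCm38.p6, named 26888 of 41174 probes. The array was designed on another assembly, so no probe coordinates are given. Promoter windows and sequences are RefSeq's, 32851 windows of 300 bases for 27025 genes.

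The genes and lists were chosen with earlier results of these data known. All listed genes are named. Values per pool are given for genes whose genotypes do not overlap, for the largest difference in each group, and for Pcna and Mcm2 to Mcm7, and from each other list the 4 genes with the smallest unadjusted p where none passed. Alternatives covered normalization, background correction, filters, the choice of probe, the replicate block and each left-out pool. The normexp model used the median spot signal in place of the planned mean signal.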

Additional observations from a re-analysis of the deposited data

How the results depend on the processing

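The count of replication genes past the threshold was 0 under all 13 alternatives by limma, with 0 to 3 at an unadjusted p under 0.05 and a smallest adjusted p of 0.165, for Cdc45 without null replicate 1. The count of 49 other replication genes past it was also 0 under each. The count of probes past it, 2 in all, was 146 with spiked-in controls (111 higher, 35 lower), 1 with only probes above background on all arrays, 0 with no filter on dim probes (1474 at an unadjusted p under 0.05) and 0 to 0 when any 1 pool was left out (607 to 5644 unadjusted). Genes higher in both null pools, 5 in all, numbered 0 with spiked-in controls (3.22% of all probes) and 5 to 23 with a pool left out. Genes lower in both, 3 in all, numbered 26 with spiked-in controls (62.1% of all probes), 5 with normexp (16.9%) and 5 to 19 with a pool left out. The higher count was 10 without wild-type replicate 1 (22.0% of all probes) and 23 without null replicate 2 (39.0%). The lower count was 19 without null replicate 1 (50.2%), 5 without wild-type replicate 1 (34.2%), 6 without wild-type replicate 2 (31.2%) and 6 without null replicate 2 (42.6%). The median difference became -0.53 with spiked-in controls and ran from -0.14 to 0.17 with a pool left out. The median gap between the null pools became -0.20 with spiked-in controls, 0.18 with quantile normalization and 0.06 with normexp, alternatives chosen after seeing the data. The cause of these changes was not tested.

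Signs of single genes changed for 17 of 32 with spiked-in controls, 9 without null replicate 1, 10 without null replicate 2, 4 and 3 when a wild-type pool was left out, 2 with normexp (Mcm5 and Pole) and 1 with the mean of all probes (Cdc6). Apart from scaling to spiked-in controls, which put all 32 lower in the null pools, 11 genes kept their sign: Mcm3, Gins3, Rpa2, Rrm1 and Chaf1b lower, and Mcm2, Cdc45, Gins2, Prim1, Pold1 and Rfc3 higher. With the replicate number as a block, 13 probes passed (8 higher, 5 lower) and 0 replication genes, with a smallest adjusted p of 0.938. Same-numbered pools deviated together with a correlation of 0.066, so the numbers are not shown to pair the pools.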
